A study of Drosophila melanogaster with 27 samples.

Results

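The genes described here are 10 genes of *Drosophila melanogaster* grouped under fasting and fat mobilization: bmm, CG5966, Lst, whd, tobi, Hsl, Lsd-1, Lsd-2, Akh and AkhR. Not all of them release fat or signal a lack of food: Lsd-2 shields the fat store, and tobi encodes an enzyme that splits sugars. The 10 genes were found by gene symbol among the 13647 probe sets of the array that the platform annotation assigns to 1 gene, which cover 11982 genes. Of the 10 genes, 9 had such a probe set. Of these whd and AkhR had 2 each, so that 11 probe sets were described. Hsl, the hormone-sensitive lipase, was not matched to a probe set of 1 gene and is not analysed here. They were chosen by symbol after log2 differences of the same arrays between +D, -D and control groups had been seen, and it is not recorded which comparison led to which gene. Every comparison among the groups below is therefore treated as used in the choice, and the values of these genes are given as a description, without a p.

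Flies store fat as triglyceride in droplets of the fat body and glycogen in the fat body and muscle. In fasting, the adipokinetic hormone Akh, the fly counterpart of glucagon, is released by the corpora cardiaca and acts on its receptor AkhR in the fat body. Lipases at the droplet surface then free fatty acids, the perilipins Lsd-1 and Lsd-2 control access to the droplet, and carnitine palmitoyltransferase takes the fatty acids into mitochondria. Limostatin, the product of Lst, is a second hormone of the corpora cardiaca that rises in fasting and lowers insulin output.

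The arrays measured RNA in whole adult males, 1 pool of males per array, and 27 arrays were used. In each of 4 inbred lines, numbered 5, 7, 12 and 15, each founded by 1 couple of an outbred stock, 3 of the most depressed sublines (+D) and 3 of the least depressed sublines (-D) were taken. Depression was judged on the productivity of the sublines, and only sublines that still had enough flies entered the +D groups. All 24 inbred sublines had passed through 8 generations of sib mating, with a mean inbreeding coefficient of about 0.7, and 3 further arrays held the outbred control, which had no sib mating. All flies were reared on yeast and sucrose medium at constant temperature under continuous light, and virgin flies were used for mating; the labels name no fasting treatment. Each value below is a log2 signal, so that a difference of 1 is a doubling, and errors of differences are standard errors (SE) from a fit that shares 1 spread among the 9 groups. The study reported more variance among the +D sublines than among the -D sublines, and the least among the control samples. A shared spread does not carry this difference.

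The arrays differed in ways other than the groups. The sample codes of the labels come from a first and a later range of numbers. Of the 27 arrays, 17 had a code of the first range alone, 4 a code of the later range alone and 6 a code of each, joined. Here every array with a code of the later range, joined or not, was counted in the later set, which held 9 of the 12 -D arrays, 1 of the 12 +D arrays and none of the 3 control arrays; 5 of these -D arrays and the +D array had joined codes. In line 12 all +D arrays were in the first set and all -D arrays in the later set. Level and set therefore cannot be told apart within line 12. The -D arrays of line 5 were all in the later set as well. Only line 5 +D, line 7 -D and line 15 -D held arrays of both sets, and a term for the set rests on these groups. What the sets stand for is not given in the sources used here, so results are repeated with the set in the model or within the first set. With the joined codes as a set of their own in the model, an alternative chosen after the data were seen, bmm remained called between +D and -D and CG5966, Lst and whd did not, as with 2 sets. Of 11 marker genes of the male reproductive tract, 9 were high in every array, aly was near its floor (3.78 to 4.49) and dj ran from 7.54 to 10.53, around the median of all tested values (8.41). Egg and yolk genes were raised in 3 arrays (line 5 +D replicate 3, line 7 +D replicate 2 and line 15 +D replicate 2). The 3 yolk proteins, taken by themselves, were raised in 8 arrays, which include these 3. The others were replicate 2 of line 5 +D and of line 5 -D, replicate 1 of line 12 +D and of line 15 -D, and control replicate 3. The median of 6 gut genes lay at -0.55 to 0.13 in the +D arrays and at -0.05 to 0.57 in the -D arrays, relative to the median of all arrays, and at -0.32 to -0.15 in the control. The median of 5 fat body genes lay at -0.52 to 0.42 in the +D arrays at -0.27 to 0.46 in the -D arrays and at -0.25 to -0.03 in the control, and Fbp1 was near its floor in most arrays (median 4.79). The median of 4 head genes lay at -0.79 to -0.33 in the control, below all inbred arrays, which lay at -0.32 to 0.42 in +D and at -0.20 to 0.18 in -D. The part of these differences in the results was not tested, and in whole flies fewer cells of a type cannot be told apart from less RNA per cell.

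Of the 11 probe sets, 9 passed a filter that kept the 9384 probe sets with the highest maximum. The other 2, the second probe sets of whd (3.75 to 4.30) and AkhR (4.09 to 4.92), were dim in every array. Between the +D and -D sublines over the 4 lines, 4 of the 9 were past an adjusted p of 0.05 in limma with Benjamini-Hochberg adjustment, all of them higher in +D. Over all probe sets tested, 6.26% were called higher, 8.94% lower and 15.2% in either direction. The 4 were bmm, CG5966, Lst and whd. As the genes were chosen with such differences known, these calls are a description and no independent test. The 5 others were tobi, Lsd-1, Lsd-2, Akh and AkhR, and of these tobi and Akh stood far above the control at both levels.

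The gene bmm (brummer) encodes the fly counterpart of adipose triglyceride lipase, which takes the first fatty acid off stored triglyceride. In the outbred control it stood at 11.11, 11.02 and 11.08. In line 5 it was 10.92, 10.70 and 10.72 in the +D sublines and 9.80, 10.35 and 10.08 in the -D sublines, in the order of the replicate numbers. In line 7 the +D values were 10.86, 10.93 and 10.98 and the -D values 9.73, 10.04 and 10.38. Both lines had every +D array above every -D array and below every control array. In line 12 the +D values were 9.88, 9.88 and 9.86 and the -D values 9.22, 9.40 and 9.37. In line 15 the +D values were 10.64, 10.41 and 10.03 and the -D values 9.88, 9.59 and 9.47. The groups were separate in these lines as well, so that the levels of bmm overlapped in no line, and the same was true of CG5966 alone among the other genes. Over all probe sets tested, 0.256% had every +D array above every -D array in all 4 lines. All 24 inbred arrays lay below every control array in bmm alone of the 9 probe sets, and over all probe sets tested this was so in 5.64%.

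The difference of bmm between +D and -D was 0.71 ± 0.08 (SE) over the 4 lines, a 1.63-fold higher level in +D, and by line it was 0.70, 0.87, 0.54 and 0.71 in lines 5, 7, 12 and 15. It was past the threshold within lines 5, 12 and 15. Within these lines 2.04%, 4.68% and 1.49% of all probe sets were called. For line 12 the call cannot be told apart from a difference between the sets of sample codes. In line 7 none of these genes was called, and only 1 probe set of 9384 (0.0107%). The difference of bmm was 0.66 ± 0.12 with the set of sample codes in the model, and it was still past the threshold, as were 4.06% of all probe sets. Within the first set, which leaves lines 7 and 15 with 1 and 2 -D arrays, it was 0.69 ± 0.11. There the lone -D array of line 7 is assumed to vary like the other groups, and 2 probe sets in all were called, bmm not among them.

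The lines also lay apart in bmm. Ordered by their means, the groups ran from the control (11.07 ± 0.04, SD, n = 3) over line 7 +D (10.92 ± 0.06), line 5 +D (10.78 ± 0.12), line 15 +D (10.36 ± 0.31), line 5 -D (10.08 ± 0.28), line 7 -D (10.05 ± 0.32), line 12 +D (9.87 ± 0.01) and line 15 -D (9.65 ± 0.21) to line 12 -D (9.33 ± 0.10). The range of a group was clear of the next one below it at 3 steps: under the control, under line 5 +D and above line 12 -D. The +D sublines of line 12 had less bmm than the -D means of lines 5 and 7, so the order of the levels held within lines and not across them.

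CG5966 encodes a predicted triglyceride lipase of the pancreatic lipase family whose RNA rises in starved flies. It stood at 10.38, 10.27 and 10.33 in the control. In line 5 it was 10.21, 9.76 and 9.31 in +D and 9.07, 9.14 and 8.55 in -D. In line 7 it was 9.32, 10.81 and 10.65 in +D and 7.92, 8.01 and 9.31 in -D. In line 7 the lowest +D array and the highest -D array nearly met, and in line 5 the levels were apart. In line 12 it was 9.14, 8.61 and 8.81 in +D and 7.96, 8.31 and 7.96 in -D. In line 15 it was 9.33, 8.97 and 8.85 in +D and 7.78, 7.84 and 7.67 in -D. In +D 2 arrays, both of line 7, lay above the control and the other 10 below it, and all 12 -D arrays were below. Every -D array lay below every control array in 10.2% of all probe sets tested.

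The difference of CG5966 between +D and -D was 1.19 ± 0.17 over the 4 lines, 2.28-fold, and 0.84, 1.85, 0.78 and 1.29 in lines 5, 7, 12 and 15, none of which was called within its line. The set of sample codes moved this gene more than bmm. In line 7 the first-set -D array held the highest of the 3 values, 9.31, and with the set in the model the difference over the 4 lines was 0.75 ± 0.23 and no longer past the threshold. In line 15 the first-set -D arrays stood at 7.84 and 7.67 and the later one at 7.78, and the difference within the first set was 1.30 ± 0.34 in that line and 0.95 ± 0.43 in line 7.

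Lst encodes limostatin, described above. It stood at 10.16, 9.90 and 9.96 in the control. In line 5 it was 11.20, 10.57 and 10.004 in +D and 9.02, 10.31 and 9.45 in -D, and this was the only line in which the levels overlapped. In line 7 it was 10.90, 10.29 and 11.41 in +D and 9.88, 9.93 and 9.74 in -D. In line 12 it was 10.19, 9.58 and 9.995 in +D and 8.42, 9.51 and 8.78 in -D. In line 15 it was 10.20, 9.91 and 10.87 in +D and 8.73, 9.50 and 8.83 in -D. The arrays of the 2 levels lay on both sides of the control: 8 of the 12 +D arrays were above every control array and 10 of the 12 -D arrays below.

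The difference of Lst between +D and -D was 1.09 ± 0.18, 2.12-fold, and by line it was 1.00, 1.02, 1.02 and 1.31 in lines 5, 7, 12 and 15. Against the control it was 0.42 ± 0.28 higher in +D and 0.66 ± 0.28 lower in -D, neither past the threshold. The 3 arrays with egg and yolk RNA held the lowest Lst of their groups, and without them the difference between levels was 1.28 ± 0.17. With the set of sample codes in the model it was 0.83 ± 0.27 and not past the threshold, and within the first set it was 1.14 ± 0.28.

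The gene whd (withered) encodes carnitine palmitoyltransferase 1, which passes long fatty acids into the mitochondrion. Its bright probe set stood at 10.87, 10.61 and 10.67 in the control. In line 5 it was 10.67, 11.07 and 10.79 in +D and 10.42, 10.60 and 10.55 in -D. In line 7 it was 10.73, 10.85 and 11.03 in +D and 9.96, 10.36 and 10.79 in -D, and here the levels overlapped through the first-set -D array. In line 12 it was 10.36, 10.24 and 10.42 in +D and 9.94, 10.01 and 9.92 in -D. In line 15 it was 10.62, 10.27 and 10.47 in +D and 9.58, 9.77 and 9.84 in -D. Outside line 7 every +D array lay above every -D array.

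The difference of whd was 0.48 ± 0.08, 1.39-fold, with 0.32, 0.50, 0.38 and 0.72 in lines 5, 7, 12 and 15, and within a line it was called in line 15. It was 0.27 ± 0.10, not past the threshold, with the set of sample codes in the model. Within the first set it was 0.36 ± 0.11 over lines 7 and 15, made up of 0.08 ± 0.18 in line 7 and 0.64 ± 0.14 in line 15. The dim probe set of whd differed by 0.09 ± 0.05 in the fit without a filter.

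**Figure D1:**
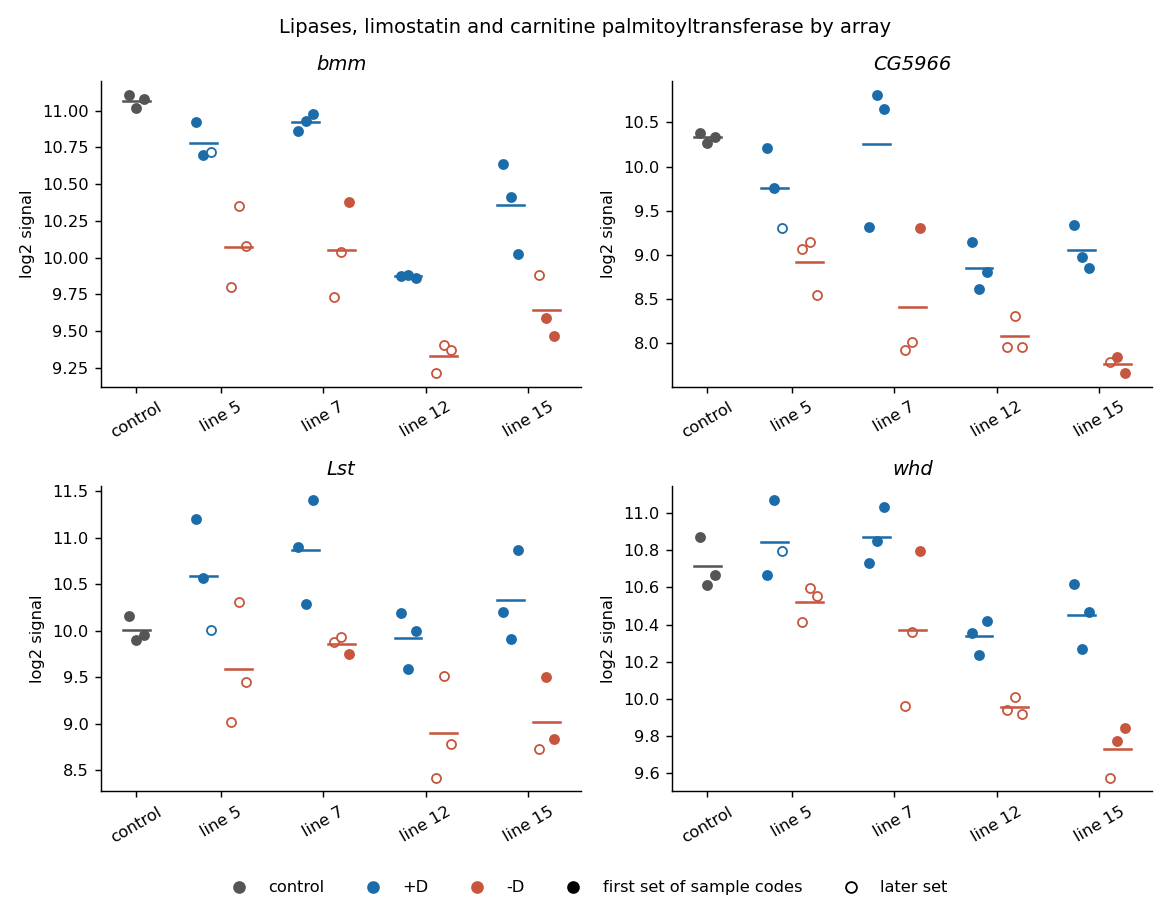
Log2 signal of bmm, CG5966, Lst and whd in each array by group (x axis), with +D in blue, -D in red and the control in grey; bars are group means and open points are arrays of the later set of sample codes. In every line the +D mean lies above the -D mean, by 0.71 (bmm), 1.19 (CG5966), 1.09 (Lst) and 0.48 (whd) over the 4 lines. A higher +D mean in all 4 lines was found in 13.9% of all probe sets tested.

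Leaving out any 1 of the 27 arrays kept the calls of bmm, CG5966, Lst and whd between +D and -D. The genes were chosen with these arrays known, so this describes the reliance on single arrays and is no independent support. Line by line, every +D array lay above every -D array for 4, 4, 4 and 5 of the 9 probe sets in lines 5, 7, 12 and 15, and over all probe sets tested for 10.4%, 4.59%, 10.2% and 7.36%. Every +D array lay below every -D array for 1, 1 and 1 of the 9 in lines 5, 7 and 12 (AkhR, tobi and Lsd-1) and for none in line 15, and over all probe sets tested for 8.47%, 6.96%, 16.9% and 7.38%.

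The gene tobi (target of brain insulin) encodes an alpha-glucosidase, an enzyme that splits sugars from longer chains, and is known as a target of both insulin-like peptides and Akh. In the control it stood at 9.67, 9.93 and 9.44, and all 24 inbred arrays lay above these. In line 5 it was 12.11, 12.34 and 12.72 in +D and 11.12, 9.99 and 10.87 in -D. In line 7 it was 11.78, 11.44 and 11.10 in +D and 12.32, 12.63 and 11.80 in -D. The order of the levels was thus opposite in these 2 lines, with no overlap in either, although by a narrow gap in line 7. In line 12 it was 12.50, 11.43 and 12.37 in +D and 12.69, 12.24 and 12.62 in -D, with overlap. In line 15 it was 11.65, 12.53 and 11.91 in +D and 11.62, 11.35 and 11.56 in -D, without overlap but by a narrow gap, +D again the higher.

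The difference of tobi between levels was 1.73 ± 0.30 in line 5 and was called there, against -0.81 ± 0.30, -0.42 ± 0.30 and 0.52 ± 0.30 in lines 7, 12 and 15, and the mean over the lines was 0.25 ± 0.15. Of 9384 probe sets, 8 (0.0853%) were called for an interaction of line and level, and tobi was 1 of them; the other 8 probe sets of these genes were not. This call ended under each alternative that kept all 24 inbred arrays in the fit, other than array weights, and it remained in 4 of the 27 fits that left out 1 array. Against the control tobi was 2.31 ± 0.24 higher in +D, 4.95-fold, and 2.05 ± 0.24 higher in -D, 4.15-fold. In line 5 -D the difference from the control was 0.98 and in the other 7 inbred groups it was 1.76 to 2.84.

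Akh, the hormone itself, stood at 6.60, 6.49 and 7.03 in the control and at 7.50 to 8.79 in the 24 inbred arrays, all of which lay above the control. In the 12 +D arrays the lowest, median and highest values were 7.53, 7.96 and 8.79. In the 12 -D arrays they were 7.50, 7.93 and 8.21. The 2 levels overlapped in every line. The difference between them was 0.07 ± 0.10 over the 4 lines and 0.14, 0.18, 0.24 and -0.27 by line. Against the control Akh was 1.28 ± 0.15 higher in +D, 2.43-fold, and 1.21 ± 0.15 higher in -D, 2.31-fold. All its control values lay below the lowest maximum that the filter kept (7.06). Akh thus entered the tested probe sets only through the inbred arrays, where it was high, and its calls against the control are no independent test. Only tobi and Akh of the 9 probe sets had every inbred array above every control array, and over all probe sets tested 9.14% did. The median of the 4 head genes described above also lay higher in all inbred arrays than in the control, and its part in these differences was not tested. In line 7 +D replicate 3 it did so narrowly (-0.318 against -0.328 in control replicate 1). The mean level of the 4 genes was lower in that +D array (10.12) than in that control array (10.15).

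AkhR, a receptor coupled to G proteins through which Akh reaches the fat body, stood at 8.51, 8.80 and 8.64 in the control in its bright probe set. The 12 +D arrays ran from 8.41 over a median of 8.96 to 9.64 and the 12 -D arrays from 8.49 over 9.30 to 9.56, with 20 of 24 inbred arrays above every control array. The difference between the levels was -0.21 ± 0.12, with -0.36, -0.38, -0.24 and 0.13 in lines 5, 7, 12 and 15. With the set of sample codes in the model it was 0.00 ± 0.18, and within the first set it was 0.17 ± 0.21, of the opposite sign. Against the control AkhR was 0.37 ± 0.20 higher in +D and 0.59 ± 0.20 higher in -D. Only the second was called, and the call ended without control replicate 1 (0.52 ± 0.24), without control replicate 3 (0.58 ± 0.24), with the set of sample codes in the model (0.34), and without the 8 arrays with yolk protein RNA (0.58). The dim probe set was 0.33 ± 0.07 lower in +D than in -D in the fit without a filter, and was called there, as were 6.8% of all probe sets. Its +D mean was the lower in all 4 lines, and in lines 5 and 7 every +D array lay below every -D array, at values under 5 throughout. Among the probe sets that passed the filter, 17.2% had the lower +D mean in all 4 lines. Every +D array lay below every -D array in 8.47% of them in line 5 and in 6.96% in line 7.

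**Figure D2:**
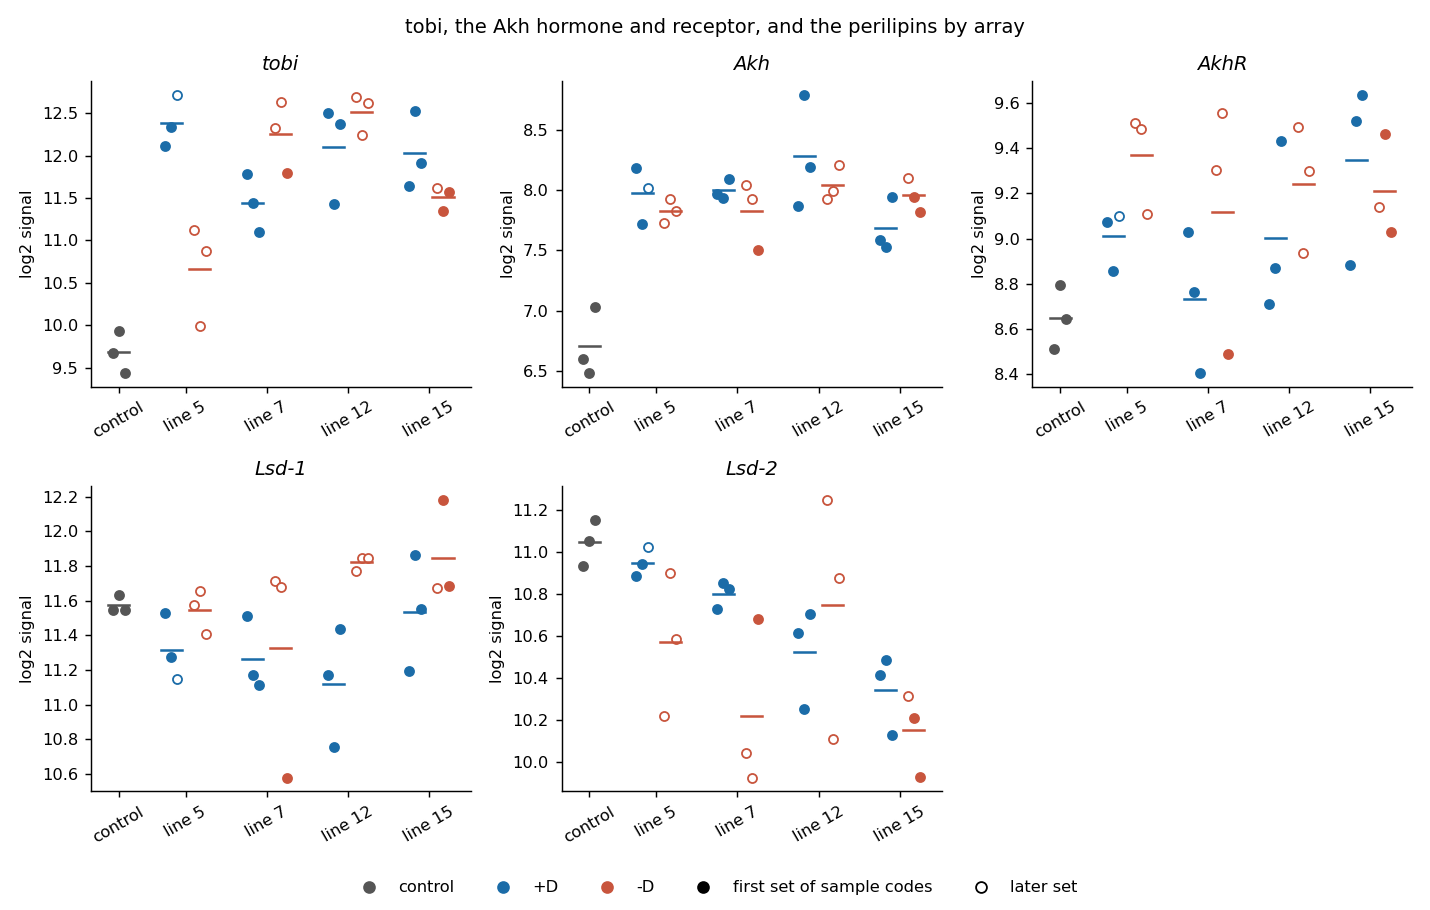
Log2 signal of tobi, Akh, AkhR (bright probe set), Lsd-1 and Lsd-2 in each array by group, drawn as in the plot of the lipases (+D blue, -D red, control grey, bars for means, open points for the later set of sample codes). tobi and Akh lie above the control in all 24 inbred arrays, and the order of +D and -D for tobi differs between lines 5 and 7.

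The perilipins coat the fat droplet. Lsd-1 lets lipases in when it is phosphorylated and Lsd-2 shields the store. Lsd-1 stood at 11.55, 11.63 and 11.54 in the control. In the +D arrays it ran from 10.76 over a median of 11.23 to 11.86, with 10 of 12 arrays below every control array. In the -D arrays it ran from 10.58 over 11.68 to 12.18, with 9 of 12 above every control array. The lowest value of all was that of line 7 -D replicate 3, the first-set array of its group, whose other 2 arrays stood at 11.72 and 11.68. The difference between levels was -0.33 ± 0.12 and not past the threshold, with -0.23, -0.06, -0.70 and -0.31 in lines 5, 7, 12 and 15. In line 12 the levels were apart, with 11.17, 10.76 and 11.43 in +D and 11.77, 11.85 and 11.85 in -D, all of the latter from the later set. Within the first set the difference was 0.15 ± 0.18, of the opposite sign.

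Lsd-2 stood at 10.94, 11.06 and 11.15 in the control. The +D arrays ran from 10.13 over a median of 10.72 to 11.02 and the -D arrays from 9.93 over 10.27 to 11.25, and 21 of the 24 inbred arrays lay below every control array. The difference between the levels was 0.23 ± 0.11, and in line 12, where a -D array reached 11.25 and another stood at 10.11, it was -0.22. Against the control Lsd-2 was lower by 0.39 ± 0.18 in +D and by 0.63 ± 0.18 in -D, and the second was called. That call ended with the set of sample codes in the model, at -0.54, although not with the joined codes as a set of their own (-0.48), and it ended without the 8 arrays with yolk protein RNA, at -0.64.

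**Figure D3:**
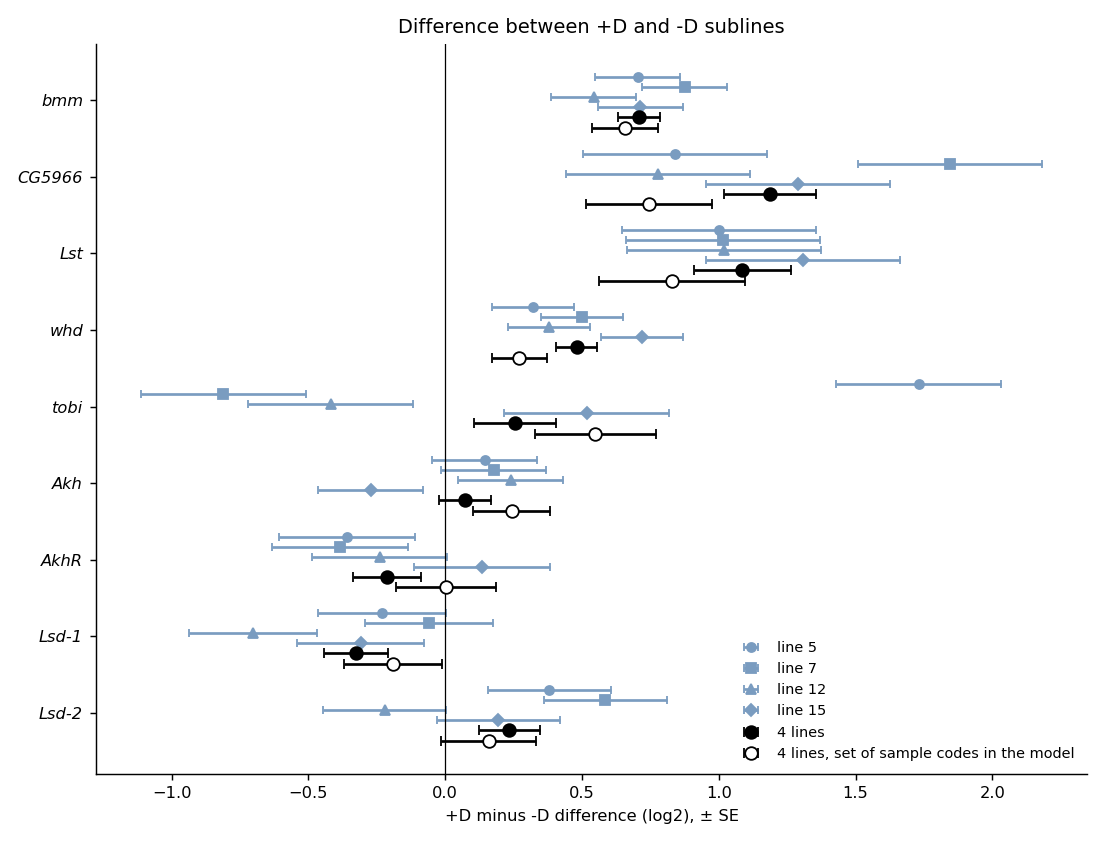
Difference between +D and -D (log2, x axis) of the 9 probe sets that passed the filter, by line (blue) and over the 4 lines (black), with error bars of 1 SE; open circles have the set of sample codes in the model. bmm moves from 0.71 to 0.66 with the set in the model and CG5966 from 1.19 to 0.75, while the 4 lines of tobi fall on both sides of 0.

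Against the outbred control, 4 of the 9 probe sets were called in +D (tobi and Akh higher, bmm and CG5966 lower), where 39.2% of all probe sets were called, 26.1% higher and 13.1% lower. In -D 7 of the 9 were called (tobi, Akh and AkhR higher, bmm, CG5966, whd and Lsd-2 lower), where 45.8% were, 30.8% higher and 15% lower. The 2 comparisons share the 3 control arrays, and the genes were chosen with such differences known. Akh passed the filter through its inbred arrays alone. The median of all probe sets tested lay 0.10 above the control in +D and 0.12 above it in -D. When each array was centred on its median, the higher share of the calls went from 66.6% to 46.8% in +D and from 67.3% to 50.4% in -D, the calls of the 7 named genes kept their direction, and Lsd-2 (+D, -0.48) and Lst (-D, -0.75) were called in addition.

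For bmm the control lay above both levels, and the difference from it was -0.59 ± 0.12 in +D and -1.29 ± 0.12 in -D, a 2.45-fold lower level in -D. For CG5966 it was -0.85 ± 0.27 in +D and -2.04 ± 0.27 in -D, 4.10-fold lower in -D, and for whd -0.09 ± 0.12 and -0.57 ± 0.12. The +D mean over the lines thus lay between the control and the -D mean in these 3 genes, although for whd it was not past the threshold against the control. The means of Lsd-2 had the same order (11.05 in the control, 10.66 in +D and 10.42 in -D), as had those of the dim probe set of whd. Over all probe sets tested, 17.8% had their means in this order with the control highest. The call of CG5966 in +D was lost without control replicate 1 or 3 (-0.82 ± 0.32 and -0.85 ± 0.32) and without the 8 arrays with yolk protein RNA (-0.83). The lines were unlike each other in +D: bmm differed from the control by -0.29, -0.14, -1.20 and -0.71 and CG5966 by -0.57, -0.07, -1.48 and -1.28 in lines 5, 7, 12 and 15. For whd the +D means of lines 5 and 7 were 0.13 and 0.15 above the control, and those of lines 12 and 15 differed from it by -0.38 and -0.27. The -D differences were, after the set of sample codes was added to the model, -1.24 for bmm, -1.54 for CG5966 and -0.33 for whd, of which the last was no longer called.

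Across arrays the 4 genes that were higher in +D varied together. Over the 24 inbred arrays Pearson's r was 0.87 between bmm and CG5966, 0.80 between bmm and Lst and 0.85 between bmm and whd. It was 0.88 between CG5966 and whd, 0.76 between CG5966 and Lst and 0.75 between Lst and whd. These arrays share lines, levels and code sets, and the 4 genes share a higher level in +D, so r is a description. Lsd-1 was related inversely to whd (r = -0.63) and directly to AkhR (r = 0.72). Over all 27 arrays and 8407 probe sets of 1 gene, the pattern most like that of CG5966 was that of GIIIspla2, a secreted phospholipase A2 (r = 0.96, Spearman's rho = 0.95, r = 0.96 without the 2 arrays farthest from the median). Its r was 0.95 in the 17 arrays of the first set, 0.97 in the 10 of the later set, and 0.79 once the group means were taken off. Next came bmm (r = 0.90, rho = 0.88), Ptpmeg (0.89, 0.92), Exn (0.87, 0.92) and CG5953 (0.87, 0.87). For bmm r was 0.92 in the first set, 0.69 in the later set and 0.53 without the group means. Without the group means it was 0.40 for Ptpmeg, 0.58 for Exn and 0.35 for CG5953.

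**Figure D4:**
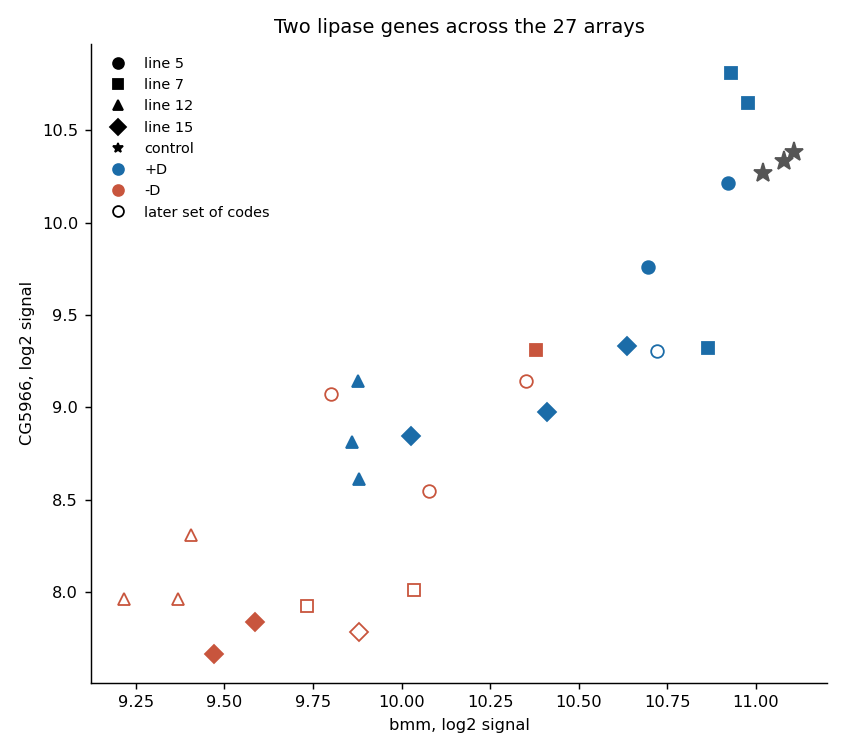
Log2 signal of CG5966 (y axis) against bmm (x axis) in the 27 arrays, with the line as the shape, the level as the colour and open points for the later set of sample codes. The 3 control arrays lie at the upper right, and the -D arrays of lines 12 and 15 at the lower left (r = 0.90).

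Related genes were counted in 7 lists, none of which holds the 10 genes, with 1 probe set per gene and limma's adjusted p over all probe sets. Between +D and -D, 6.26% of all probe sets tested were called higher and 8.94% lower. The lists were drawn up with earlier results of these arrays known, and most genes named below have the largest called differences of their list. Their adjusted p-values are therefore a description and no independent test of a pathway. Among 12 tested genes of insulin and nutrient hormone signalling, of 28 named, 3 rose in +D over -D and none fell, with a median of 0.10 over the list against -0.01 over all probe sets tested. They were Ilp2, an insulin-like peptide of the brain (7.15 ± 0.27, SD over 12 arrays, in +D; 0.34 ± 0.09 higher, SE, adjusted p = 0.014), Pdk1, the kinase that activates Akt (0.27 ± 0.07, adjusted p = 0.0075), and chico, the insulin receptor substrate (0.24 ± 0.05, adjusted p = 0.0031). None of the 3 kept its call with the set of sample codes in the model, and all 3 kept their sign.

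Of 12 genes of mitochondrial beta-oxidation, the step that follows whd, only CG9547 was past the threshold. It fell by 0.40 in +D (adjusted p = 0.0074), the median of the list was 0.01, and the call was lost with the set of sample codes in the model. CG9547 is annotated as a glutaryl-CoA dehydrogenase, an enzyme of lysine breakdown. Of 17 genes of triglyceride synthesis 2 rose and 6 fell, with a median of 0.01, where 6.26% of all probe sets tested rose and 8.94% fell. The risers were mino, a mitochondrial glycerol-3-phosphate acyltransferase (0.39 ± 0.06, adjusted p = 1.1e-04), and Lpin, the phosphatidate phosphatase lipin (0.27 ± 0.05, adjusted p = 5.3e-04). FASN3, a fatty acid synthase, fell by 0.52 (adjusted p = 9.5e-04) and Agpat4, an acyltransferase of the next step, by 0.41 (adjusted p = 0.0021). The other 4 that fell did so by 0.17 to 0.26. With the set of sample codes in the model 1 of the 8, Agpat4, kept its call, and all 8 kept their sign, but Agpat4 was not called with the joined codes as a set of their own or without the 8 arrays with yolk protein RNA (-0.33 in the latter, adjusted p = 0.10).

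Of 8 other lipases, 1 rose and 4 fell, with a median of -0.47, opposite in sign to bmm and CG5966. Of all probe sets tested 6.26% rose and 8.94% fell. CG11598, one of the genes that the study itself chose on these arrays, fell by 0.78 (adjusted p = 0.041), with -2.19 in line 7 and -0.23 to -0.42 in the others. CG18530 fell by 0.60 (adjusted p = 0.013) and mag, a lipase of the gut that is also 1 of the 6 gut markers, by 0.55 (adjusted p = 3.4e-04), while Lip4 rose by 0.51 ± 0.11 (adjusted p = 0.0028). Only mag kept its call with the set of sample codes in the model. In 5 genes of lipoprotein transport, which moves fat between tissues, LpR2, a lipophorin receptor, rose (0.40 ± 0.11, adjusted p = 0.019), and Mtp, which loads lipid onto lipophorin, and Apoltp, a lipid transfer particle, fell by 0.41 (adjusted p = 7.3e-04) and 0.23 (adjusted p = 0.023). Mtp and Apoltp kept their calls with the set of sample codes in the model, and Apoltp lost its call without the 3 egg and yolk arrays (-0.19, adjusted p = 0.11) and without the 8 arrays with yolk protein RNA (-0.21, adjusted p = 0.22).

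Of 14 genes of glycogen, trehalose and gluconeogenesis, Treh, the trehalase, fell by 0.17 in +D (adjusted p = 0.0094) and the others were not past the threshold. Against the control, 6 of the 14 genes fell, 2 rose and 6 were not past the threshold in +D, and 7 fell, 1 rose and 6 were not past it in -D. The medians of the list were -0.21 and -0.28, where those of all probe sets tested were 0.10 and 0.12, and 13.1% and 15% of all probe sets were called lower. GlyP, glycogen phosphorylase, stood at 13.21 in the control, 12.50 in +D and 12.41 in -D (adjusted p = 0.0033 and 9.4e-04). Pfk, phosphofructokinase, was 0.64 lower in +D and 0.92 lower in -D (adjusted p = 0.0047 and 1.6e-04). Tps1, which makes trehalose, rose by 0.41 and 0.34. The counts rested on few control arrays, since leaving out 1 array left between 2 and 7 of the genes lower in +D, and with the set of sample codes in the model 2 were lower in -D.

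Of 14 autophagy genes 5 rose in +D over -D and none fell, with a median of 0.04, where 6.26% of all probe sets tested rose and 8.94% fell. Atg9 (0.29 ± 0.04, adjusted p = 1.3e-04), a membrane protein that feeds the growing autophagosome, rose the most. Next were Atg18a (0.26 ± 0.05, adjusted p = 5.1e-04), the kinase gene Atg1 (0.23 ± 0.06, adjusted p = 0.010) and Atg8a (0.22 ± 0.03, adjusted p = 4.0e-05), which encodes the ubiquitin-like coat of the autophagosome. Atg8a stood at 12.55 ± 0.03 (SD, n = 12) in +D, 12.33 ± 0.09 (SD, n = 12) in -D and 12.38 in the control, and it alone kept its call with the set of sample codes in the model, at 0.21. Without the 8 arrays with yolk protein RNA, chico, CG11598, CG18530, Treh and Atg1 also lost their calls, and without the 3 egg and yolk arrays CG11598 did.

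**Figure D5:**
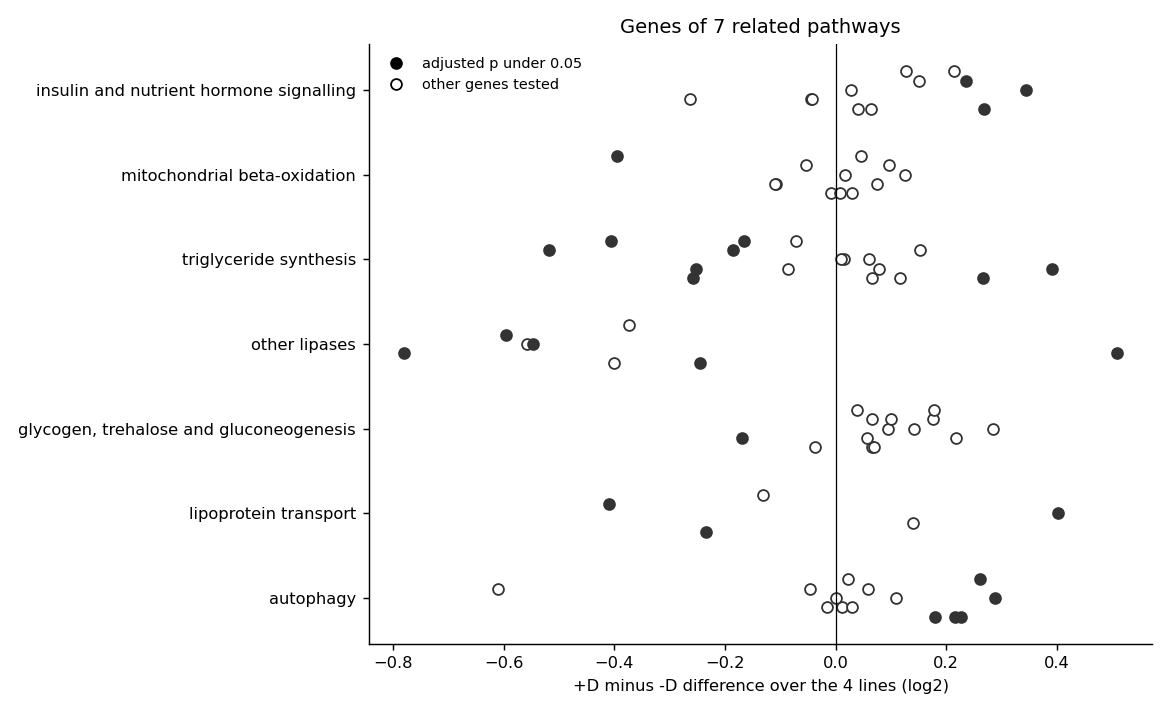
Difference between +D and -D over the 4 lines (log2, x axis) of each tested gene of 7 lists of related genes (rows); filled points are past an adjusted p of 0.05. Triglyceride synthesis has 6 filled points below 0 and 2 above, other lipases 4 and 1, and autophagy 5 above 0. Over all probe sets tested, 6.26% were called higher and 8.94% lower.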

How the data were processed

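Total RNA of 27 pools of whole males was measured on Affymetrix Drosophila Genome 2.0 arrays. The authors deposited log2 values made with RMA (background adjustment, quantile normalization, probe set summary), with Partek 7.3.3 and affy named in the submitters' processing notes; RMA compresses changes of dim probe sets. Precision is limited by the number of arrays. The 183 control probe sets were left out of the table, which leaves 18769, and the 9384 with the highest maximum stood in for the present calls of the study. Genes came from the platform annotation. A limma 3.58.1 fit (R 4.3.3) of 9 group means with a trend gave all contrasts, with Benjamini-Hochberg adjustment over all probe sets tested. On simulated data it recovered 96.5% of 200 changes of 1 log2 unit between +D and -D, with 8 false calls, over 9384 probe sets. The simulated noise was independent and normal, with the same spread in all groups and no difference between code sets. The false calls there therefore do not carry over to these arrays. Nothing states that the 3 replicates of a group share more than their line and level, and p-values measure the spread between pools of separate sublines, or of the control.

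The members and lists were chosen with earlier results of these data known. Named were all members, up to 4 genes per list with the largest change past the threshold between +D and -D, and the 5 patterns most like CG5966; GlyP, Pfk and Tps1 were named after their values were seen. Alternatives were other filters, median centring, a table of the 24 inbred arrays, no trend, array weights, line plus level as terms, the replicate number as a block, the set of sample codes, the joined codes as a set of their own (added after the data were seen), arrays with egg or yolk RNA left out, and each array left out in turn.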

Additional observations from a re-analysis of the deposited data

Results flagged for a closer look

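tobi was the one gene of the 9 whose +D arrays all lay above the -D arrays in some lines and all below in another. Its +D minus -D difference was 1.73 in line 5 and 0.52 in line 15, with every +D array above every -D array, and -0.81 in line 7, with every +D array below. The gap was narrow in line 15 (lowest +D array 11.65, highest -D array 11.62) and in line 7 (highest +D array 11.78, lowest -D array 11.80). Over all probe sets tested, every +D array lay above in 10.4% in line 5 and 7.36% in line 15, and below in 6.96% in line 7. How many probe sets combined such orders was not counted. The gene tobi was chosen with earlier results known, so that the interaction fit, in which it was 1 of 8 probe sets called, is not an independent test of the opposite orders. Among the alternatives that kept all inbred arrays, the interaction fit called it with array weights and not with another filter, median centring, the inbred table, no trend, the replicate number as a block or the set of sample codes in the model, in 2 sets or 3. Nor was it called without the egg and yolk arrays, and with 1 array left out it was called in 4 of the 27 fits. Groups of 3 arrays are too few for a search for outlying arrays within groups.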

How the results depend on the processing

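For bmm, Lst, tobi, Lsd-2 and Akh, the difference between +D and -D over the lines changed by no more than the spread between replicates under all alternatives run. With the set of sample codes in the model CG5966 moved to 0.745 and whd to 0.271, neither still called, Lst was no longer called either, and bmm was. With the joined codes as a set of their own, chosen after seeing the data, they moved to 0.741 and 0.254, with the same calls lost, and within the first set of codes (lines 7 and 15) none of the 9 was called and Lsd-1 reversed to 0.145 and AkhR to 0.172; the causes were not tested. Leaving out 1 array moved bmm between 0.67 and 0.75, CG5966 between 1.12 and 1.31, Lst between 1.01 and 1.18 and whd between 0.43 and 0.53, all still called, and Lsd-1 (-0.42 to -0.28) became called in 3 of the 27 fits. The dim probe sets of whd and AkhR could be tested only without a filter, at signals near the floor.

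Counts over all genes also depended on the processing. Between +D and -D, the 1426 calls became 381 with the set of sample codes in the model, 292 with the joined codes as a set of their own, 2 within the first set (fewer arrays) and 685 without the 8 arrays with yolk protein RNA, and ran from 1133 to 1521 with 1 array left out. Against the control, the 4298 calls of -D became 2328 with the set in the model, 2260 with joined codes apart, 1339 within the first set (lines 7 and 15 alone) and 5871 with array weights (2966 to 4522 with 1 array left out). The 3677 of +D became 2921 within the first set, 5004 with array weights and 2429 without control replicate 1 (2429 to 4081). In line 5 the 191 calls became 126 without a filter, 76 without the egg and yolk arrays and 3 without the yolk protein arrays (39 to 228 with 1 array left out, the lowest without -D replicate 1). In line 7 the 1 call became 6 with median centring, 2 in the inbred table, 124 with array weights, 0 within the first set and 2 without either set of egg or yolk arrays (1 to 36, the highest without -D replicate 3). In line 12 the 439 calls became 284 without a filter, 941 with array weights, 15 with the set in the model and 21 with joined codes apart (129 to 551, the lowest without -D replicate 1). In line 15 the 140 calls became 0 within the first set, 75 without the egg and yolk arrays and 4 without the yolk protein arrays (21 to 157, the lowest without -D replicate 1). The 8 interaction calls became 4 without a filter or with joined codes apart, 2 with a filter on the mean, with median centring, in the inbred table, without a trend or with the set in the model, 21 with array weights, and 1 without the egg and yolk or the yolk protein arrays (1 to 14).

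In the lists, the set of sample codes in the model left 0 calls in insulin signalling, beta-oxidation and glycogen, and 1 each in triglyceride synthesis, other lipases and autophagy, within the first set all 7 lists had 0, and with joined codes apart triglyceride synthesis too had 0 and the other lists matched the counts with 2 sets. Beta-oxidation had 2 with a filter on the mean or with line plus level as terms (1 to 2 with 1 array left out), glycogen 2 with array weights and 0 without the yolk protein arrays (1 to 3), other lipases 3 without either set of egg or yolk arrays, and triglyceride synthesis 4 without the yolk protein arrays.

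The replicate number as a block left 1265 calls between +D and -D and 1 interaction call (tobi was no longer called there) and changed no call of the members over the 4 lines or against the control. The numbers are not stated to pair sublines: arrays of different groups with the same number correlated at -0.06, -0.02 and -0.04 on average for numbers 1, 2 and 3, and those with different numbers at 0.02.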
